A study of Mus musculus with 4 samples.

Results

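Of 70744 merged regions of accessible chromatin in large peritoneal macrophages (LPMs), 12015 lay at a promoter, and 1013 of these promoters had a peak in each LysMCre+ Rxrab fl/fl library but in no Rxrab fl/fl library. They are called LysMCre-only promoters here. They were chosen by the peak calls themselves: overlapping peaks (1 bp or more) from the 4 lists were joined, and the midpoint of a region had to lie between 1 kb upstream and 200 bp downstream of the transcription start site (TSS) of a curated RefSeq mRNA. The calls in both genotypes therefore made the selection, so every comparison of genotypes at these promoters is a description and carries no test. The 1013 promoters belonged to 990 of the 20021 autosomal genes with such an mRNA (4.94%), and 14 of them held the TSSs of more than 1 gene.

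The assay was ATAC-seq. Its Tn5 transposase inserts adaptors where DNA is not covered by nucleosomes. The 4 libraries came from 40000 sorted LPMs each of C57BL/6 mice 9 weeks old, all in library batch 1. Both genotypes carry loxP-flanked (fl/fl) alleles of Rxra and Rxrb, which encode the retinoid X receptors alpha and beta, and are compared to ask how chromatin changes when LPMs lack these receptors. The 2 Rxrab fl/fl libraries (replicates 1 and 3) have no Cre, and the 2 LysMCre+ Rxrab fl/fl libraries (replicates 1 and 2) carry Cre driven by the lysozyme M gene, which recombines in myeloid cells in general and not in LPMs alone. No Cre-positive control without the floxed alleles was among the 4 libraries, so the effect of Cre and that of the deletion cannot be told apart. Nothing in the sources says whether the cells of a library were pooled from several mice. Below, the genotypes are called control and LysMCre+. The study left out ATAC-seq samples that did not cluster with their group.

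A promoter is the stretch of DNA around a TSS where RNA polymerase is loaded, and it is accessible when transcription factors keep nucleosomes away. Promoters of genes used in all cells are mostly rich in CpG dinucleotides and in sites for general activators, whereas promoters of genes used in few cell types are more often poor in CpG. LPMs are the resident macrophages of the serous cavities and depend on GATA6. Small peritoneal macrophages (SPMs) and macrophages newly derived from monocytes carry other genes, among them Retnla, Mrc1 and Cd209 family members. RXRs are nuclear receptors that bind DNA as partners of the retinoic acid receptors and other nuclear receptors.

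The DNA of 5 promoters is shown first, as examples. Mrc1, Retnla and Cd209d are on the list of SPM markers, Rxrg belongs to the RXR family, and Sema3g has the highest fold enrichment in LysMCre+ replicate 2. Each stretch is 120 bases long on GRCm38.p6 (mm10), reads 5′ to 3′ in the direction of the gene and ends just before the TSS, or for Cd209d 50 bases before it to stay clear of an exon of another transcript. Mrc1 is at chr2:14229294-14229413 on the plus strand, Retnla at chr16:48842489-48842608 on the plus strand, Cd209d at chr8:3878549-3878668 on the minus strand, Rxrg at chr1:167598242-167598361 on the plus strand and Sema3g at chr14:31217753-31217872 on the plus strand. All 5 are intergenic or intronic and outside annotated exons. Capitals mark letters of the 18 motifs that were searched on both strands, of which a GC box, a CCAAT box, a TATA box and a MEIS site are found here.
Mrc1: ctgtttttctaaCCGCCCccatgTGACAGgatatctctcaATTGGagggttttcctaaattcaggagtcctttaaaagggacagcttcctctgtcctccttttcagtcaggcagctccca
Retnla: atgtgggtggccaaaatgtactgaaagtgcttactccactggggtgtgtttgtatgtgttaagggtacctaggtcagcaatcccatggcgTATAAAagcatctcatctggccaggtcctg
Cd209d: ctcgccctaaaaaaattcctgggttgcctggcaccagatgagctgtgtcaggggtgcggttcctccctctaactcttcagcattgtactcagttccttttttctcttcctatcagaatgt
Rxrg: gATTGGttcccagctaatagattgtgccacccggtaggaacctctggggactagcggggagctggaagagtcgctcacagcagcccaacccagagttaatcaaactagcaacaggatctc
Sema3g: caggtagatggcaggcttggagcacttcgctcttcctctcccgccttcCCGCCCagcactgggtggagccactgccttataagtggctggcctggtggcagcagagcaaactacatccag

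Mrc1, the mannose receptor, has a GC box, a MEIS match and a CCAAT box. Retnla, a secreted resistin-like protein, has a TATA box 30 bases before its TSS. Cd209d, a C-type lectin, has no match to any of the 18 motifs in this stretch. Rxrg has a CCAAT box at the far end, and Sema3g, a secreted semaphorin, has a GC box. Over the 32851 promoters of the RefSeq table, a GC box (GGGCGG) stood in 26.5% of such 120-base stretches, a CCAAT box in 21.3%, a MEIS site (TGACAG) in 7.64% and a TATA box (TATAAA) in 6.34%. Among the LysMCre-only promoters the shares were 43.5%, 17.4%, 6.91% and 4.24%, but only 756 of them are in that table, which holds other promoters than those the rule could choose. Built alike for both, over the 300 bases around each TSS, the GC box stood at 54.7% of LysMCre-only promoters and at 48.0% of all TSSs of curated mRNAs, and the CCAAT box at 30.9% and 37.4%.

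The libraries differed widely in their number of peaks. Control replicates 1 and 3 had 38048 and 16097 peaks, and LysMCre+ replicates 1 and 2 had 65421 and 55581. The lowest background that the peak caller used, which stands in for depth, was 1.97, 1.06, 1.33 and 1.08 reads, so the library with most peaks was not the deepest. Calls in both LysMCre+ libraries and neither control made up 22.8% of all regions and 8.43% of promoter regions, and the opposite pattern was seen at 2 promoters, Rnd2 (3.88 and 5.52 in the controls) and Gyg (4.00 and 6.36). Without control replicate 1 the rule chose 3756 promoters and without control replicate 3 it chose 1016, so nearly all of the exclusion came from replicate 1. The part of these library differences in the selection was not tested. A peak list gives no value where no peak was called, so no fold difference between the genotypes can be given for these promoters, and absence of a peak does not show closed chromatin. The promoters of Rxra and Rxrb had peaks in all 4 libraries, with fold enrichments of 6.43, 5.77, 10.4 and 7.27 at Rxra and of 8.36, 5.71, 7.17 and 4.79 at Rxrb (both controls first); a promoter peak does not report on the deletion.

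LysMCre-only promoters were weak peaks. Fold enrichment is the read pileup at the summit divided by the local background, with 1 added to both. Its median over the 1013 promoters was 6.30 in replicate 1 (range 2.48 to 20.8) and 5.29 in replicate 2 (2.50 to 14.7) of LysMCre+. At the 6886 promoters called in all 4 libraries the same medians were 16.2 and 12.8, and at the 2730 promoters missed only in control replicate 3 they were 10.1 and 7.78. The pileup behind a median LysMCre-only summit was 24 reads in replicate 1 and 18 in replicate 2, against 118 and 72 at promoters called in all 4. The regions were also narrow, with a median width of 393 bp against 737 bp. Width is that of the joined region, built from peaks of 2 libraries in the set and of 4 in the other group. Part of this gap may thus come from the joining. The median LysMCre-only promoter was stronger than 34% of all peaks of replicate 1 and 24.6% of those of replicate 2.

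The 2 LysMCre+ libraries ranked these promoters alike only in part. Across the 1013 promoters, Pearson's r of the log2 fold enrichments was 0.680 and Spearman's rank correlation 0.644, as a description of promoters that share both libraries. Replicate 1 was higher at 731 of them (72.2%), and 44 were over 2-fold apart, of which 1, at Mro, was higher in replicate 2 (4.73 and 9.52). The summits of the 2 libraries lay a median of 34 bp apart, and 657 pairs (64.9%) were within 50 bp.

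**Figure D1:**
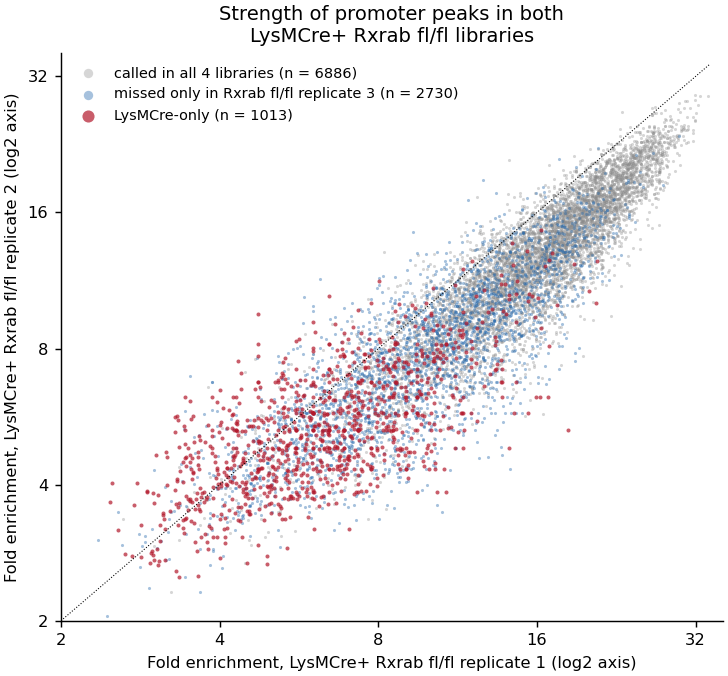
Fold enrichment of each promoter peak in LysMCre+ replicate 1 (x axis) and replicate 2 (y axis), both on log2 axes. Each point is 1 promoter region, in grey if called in all 4 libraries, in blue if missed only in control replicate 3 and in red if LysMCre-only; the dotted line marks equal values. The red points fill the lower left, with medians of 6.30 and 5.29, and few reach the grey cloud.

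The share of promoters that the controls missed fell steadily with strength. Among promoters called in both LysMCre+ libraries, 123 of 219 with a geometric mean fold enrichment under 4 were LysMCre-only (56.2%). The share was 41.7% between 4 and 6, 22.6% between 6 and 8, 8.38% between 8 and 10 and 1.63% between 10 and 12. At 15 or more, 3 of 3344 were LysMCre-only (0.0897%). Over the same range the share called in control replicate 1 went from 43.8% to 99.9%, and that called in replicate 3 from 11.0% to 93.0%. Since strength decides whether a peak is called, this order follows in part from the rule.

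**Figure D2:**
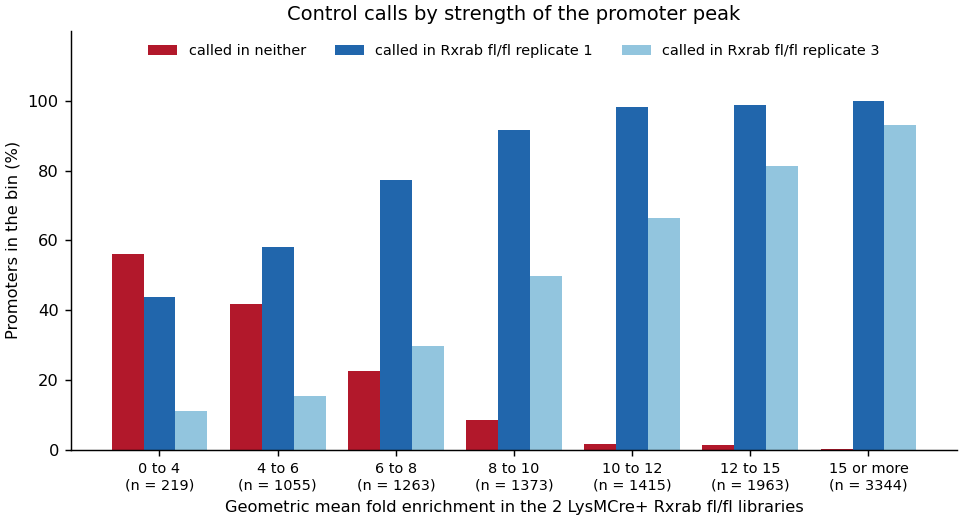
Share of promoters called in neither control library (red), in control replicate 1 (dark blue) and in replicate 3 (light blue), by the geometric mean fold enrichment in the 2 LysMCre+ libraries. The x axis gives the bin and its number of promoters and the y axis the percent of them; the red bars fall from 56.2% in the weakest bin to 0.0897% in the strongest.

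With the same number of peaks taken from each library (16097, by lowest q value), 206 promoters met the rule and 9 of them were among the 1013. Of the 206, 197 had a weaker peak in control replicate 1 that fell outside its 16097. The 9 that met both were the promoters of Sema3g, Adam19, Clec2l, Syne1, Acbd7, Nfatc2, Tiam1, Gbgt1 and Smarcd3. All but these 9 left the set, which follows largely from the cut. LysMCre-only promoters have no control peak, so the cut removes them mainly by dropping their own LysMCre+ peaks, most of which are weak. Likewise, a promoter outside the 1013 could newly meet the rule mainly by losing a control peak. The effect of peak number on the set was not tested by this.

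The edges of the rule were as follows. The weakest q value inside it was at BC034090, with fold enrichments of 3.33 and 5.56 and a −log10 q of 2.00 in replicate 1. The weakest control call that kept a promoter out was at Kbtbd12, with 3.03 in control replicate 1 (−log10 q of 1.5) against 11.6 and 5.24 in the LysMCre+ libraries. In position, Vwa1 was just inside (1000 bp upstream, 4.27 and 4.15) and Zfp667 just outside (1005 bp upstream, 5.13 and 3.30). Downstream, Rftn2 (200 bp, 6.45 and 8.18) was inside and Htr6 (201 bp, 7.07 and 5.14) outside. Values on the 2 sides of each position limit lay in the same range.

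The 12 strongest promoters, by mean log2 fold enrichment, covered genes of very different roles. The strongest was that of Slc4a3, an anion exchanger, with fold enrichments of 20.8 and 12.5 in LysMCre+ replicates 1 and 2 and pileups of 64 and 30 reads, on chromosome 1 from 75546296 to 75546722. Sema3g followed with 16.3 and 14.7 (pileups of 61 and 62). Adam19, a membrane metallopeptidase, reached 18.8 and 12.3 (98 and 55 reads). At all 3, which were picked by these values, both libraries were far above the medians of 6.30 and 5.29. By the rule no control had a peak there.

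The next were Clec2l, a C-type lectin-like protein (17.1 and 13.0), and Ptprk, a receptor tyrosine phosphatase (20.1 and 10.7). Syne1, which encodes a large spectrin-repeat protein of the nuclear envelope, had 16.9 and 12.6. Scnn1g, the gamma subunit of the epithelial sodium channel, had 20.7 and 10.1. At Ptprk and Scnn1g replicate 1 was near 2 times replicate 2, so their rank rests more on that library.

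Dyrk4, a protein kinase, had 16.6 and 12.2, and Abr had 15.3 and 13.1. Acbd7, an acyl-CoA-binding protein, had 14.4 and 13.7, Cdk15, a cyclin-dependent kinase, 14.4 and 12.3, and Rab13, a small GTPase of vesicle traffic, 17.4 and 10.0. Of these 12 promoters, 3 were CpG-rich by the definition given below. At the other end were Tspoap1 (2.65 and 2.81), Cdk5 (2.73 and 2.78) and Hsp90b1 (2.83 and 2.77), where pileups of 29 to 94 reads stood on a high local background. The widest regions were at Pde2a (1439 bp), Smarcd3 (1190 bp) and Scrn1 (1159 bp).

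Genes that mark SPMs or monocyte-derived macrophages were frequent in the set. Of 16 such markers, 6 had a LysMCre-only promoter (37.5%, against 4.94% of all genes). The list was chosen with results of these data known. The study itself names Fcrls, Cd209d, Retnla, Mrc1 and Ccr2 from these samples, so the list is not independent evidence. Fcrls, an Fc receptor-like scavenger receptor, was the strongest, with 14.2 and 10.5. Cd209d had 13.8 and 6.73. Cx3cr1, the fractalkine receptor, had 2 LysMCre-only regions, one of 6.69 and 7.31 centred 605 bp upstream and one of 4.11 and 4.49 nearer the TSS.

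The other 3 were weaker. Ciita, the transactivator of major histocompatibility complex class II genes, had 7.49 and 4.51. Mrc1 had 5.36 and 5.66, and Retnla had 5.00 and 3.65 on 12 reads in each library. The last is among the weaker values of the whole set.

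The remaining 10 markers did not follow 1 pattern. Irf4, a transcription factor, was called in all 4 libraries (15.9 and 6.37 in the controls, 18.1 and 12.8 in LysMCre+), as was H2-Aa, a class II chain (10.5 and 5.17, then 10.5 and 6.90). Clec4b1, Cd209a, H2-Ab1 and Cd74 were missed only in control replicate 3, and at Cd74 the control value of 6.15 was above the 4.17 and 3.78 of LysMCre+. Cd226, Itgax and Ly6c2 were called in LysMCre+ replicate 1 alone, and Ccr2, the receptor that monocytes use to leave the marrow, had no promoter peak in any library. The study names Ccr2 among loci that gained accessibility, but it assigned peaks to the nearest TSS and not to promoters alone.

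Over the whole list, promoters of 6 and 2 genes were called in the controls and of 15 and 12 in LysMCre+. The summed fold enrichment was 47.0 and 11.5 against 125 and 86.3, where a promoter without a peak added nothing. Genes with a LysMCre-only promoter are part of these figures, and by the rule they add to LysMCre+ alone. The contrast is thus in part the selection itself. The number of cells of each kind in a library is not known from these files, so more cells of a type and more open chromatin per cell cannot be told apart, and neither was tested. The paper gates LPMs as cells high in F4/80 and low in MHC class II, and SPMs as low and high in them. It gives no purity for the cells sorted for ATAC-seq. Markers of B cells, T cells, eosinophils, mast cells and mesothelial cells had no promoter peak in any library (28 genes in all). Neutrophil markers were called for 2, 0, 3 and 2 of 6 genes and dendritic cell markers for 2, 1, 2 and 2 of 5, in the order above.

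The LPM markers themselves were called in every library in similar numbers. Of 18, promoters of 13 and 11 were called in the controls and of 14 and 14 in LysMCre+, with summed fold enrichments of 142 and 87.9 against 140 and 127. Gata6, the factor that defines LPMs, had 11.3 and 7.61 in the controls and 5.80 and 8.61 in LysMCre+, so the groups overlapped. Of the 18, 11 had a promoter called in all 4 libraries (61.1%), while Csf1r, Cd14, Cd9 and Tgfb2 had no peak in the promoter window. Irf4 and H2-Aa of the SPM list were called in all 4 too, so such calls do not identify the cell type. Itgam, which encodes CD11b, was the 1 LPM marker with a LysMCre-only promoter (6.06 and 8.68), yet another Itgam region centred 862 bp downstream of the TSS was called in all 4 (6.25 and 4.09, then 4.30 and 3.40).

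**Figure D3:**
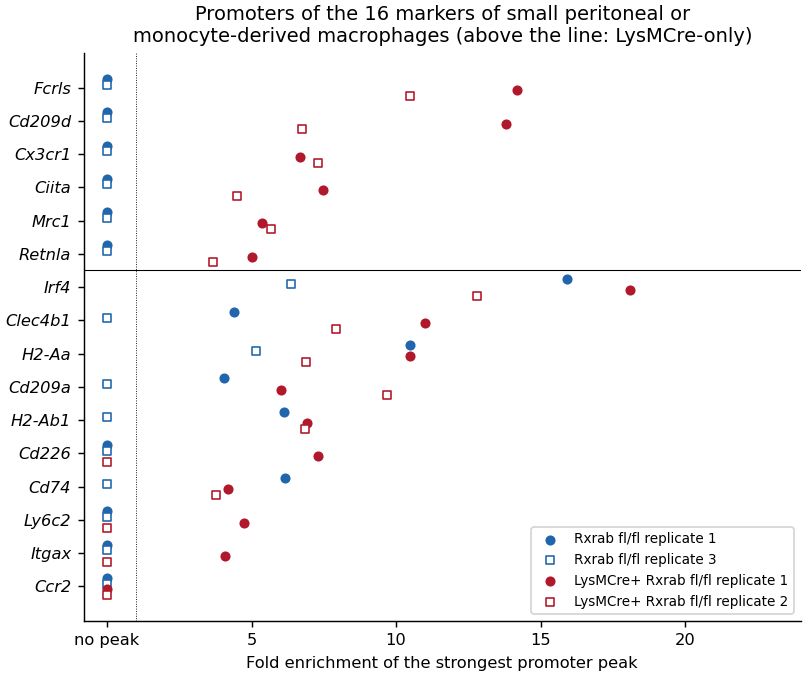
Fold enrichment (x axis) of the strongest promoter peak of each of 16 SPM or monocyte-derived markers (y axis) in the 2 control libraries (blue) and the 2 LysMCre+ libraries (red), with a mark at "no peak" where none was called. Filled circles are replicate 1, open squares are control replicate 3 or LysMCre+ replicate 2. The 6 genes above the line have red marks from 3.65 to 14.2 and no control peak, while Irf4 and H2-Aa below it have marks of both colours.

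Surface receptors of leukocytes took larger shares than genes as a whole. Of 49 C-type and sialic acid-binding lectins, 9 had a LysMCre-only promoter (18.4%), which besides Clec2l and Cd209d were Clec4a4 (12.9 and 9.62), Clec5a (9.46 and 6.96), Siglece (8.17 and 7.64), Cd209b, Clec4n, Cd209g and Clec12a. Of 106 genes for Fc, paired and other leukocyte receptors, 13 had one (12.3%), led by Fcrls. All family lists were drawn by gene symbol, so some genes may be on a list by name alone. This list also took in 7 Cd209 genes, of which 3 had one. Without them it was 10 of 99 (10.1%). Fcgr2b, the inhibitory Fc receptor, had 8.99 and 9.43, and Ly9 and Slamf7, both of the SLAM family, had 10.6 and 7.46 and 8.48 and 8.48. These shares are counts beside the 4.94% of all genes, and no test was made of them.

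Of 133 G protein-coupled receptor genes, 20 had a LysMCre-only promoter (15%). Adgrg1, an adhesion receptor, was the strongest (16.1 and 10.4), followed by Gpr55, a lysolipid receptor (16.8 and 8.12). Gpr20 had 11.5 and 8.80 and Adgrl4, another adhesion receptor, had 10.7 and 8.18.

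Guidance and growth factors formed another group, with 17 of 95 genes for ephrins, semaphorins and the EGF, PDGF, VEGF and IGF families (17.9%). After Sema3g came Ephb1, an ephrin receptor (9.29 and 10.0), Epha3 (11.6 and 6.25) and Vegfc, a lymphatic growth factor (9.94 and 6.87). Cadherins, protocadherins and claudins had 16 of 115 (13.9%), led by Pcdhac1 (11.5 and 8.49), Pcdhgb6 (9.40 and 9.84) and Cdh1, which encodes E-cadherin (8.06 and 8.27). Of the 16, 10 were clustered protocadherins of chromosome 18, close copies whose values are uncertain, and without them it was 6 of 58 (10.3%). Ion channels had 17 of 174 (9.77%), led by the potassium channel gene Kcnt2 (11.6 and 9.62).

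Chemokine and cytokine genes had 18 of 214 (8.41%), with Il20ra (11.2 and 8.26), Cxcl17 (11.5 and 5.77) and the interferon lambda receptor gene Ifnlr1 (9.93 and 6.36) at the top. Homeobox and other developmental factors had 20 of 218 (9.17%), with Tbx3 (12.3 and 8.88) first. Lipid and cholesterol genes had 19 of 267 (7.12%), led by Osbpl5 (13.7 and 7.56), Abca8b (13.4 and 7.21) and Apol8 (10.6 and 8.96). Solute carriers had 27 of 362 (7.46%), where Slc26a7 (13.8 and 7.21) came after Slc4a3.

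Further families ranged from 4.26% to 9.01%, beside the 4.94% of all genes. Wnt, BMP, FGF and Notch genes had 10 of 111 (9.01%), with the ligand genes Wnt5b (8.33 and 7.22), Wnt11 (8.28 and 5.65) and Fgf2 (8.40 and 5.29) first. Matrix and metalloproteinase genes had 13 of 155 (8.39%), where Fbln7, a fibulin, came after Adam19 (13.7 and 6.74). Pattern recognition and interferon genes had 8 of 131 (6.11%), among them Ifit3, an interferon-induced gene (9.03 and 6.25), and Tlr1, a sensor of bacterial lipopeptides (6.02 and 8.02). Histone genes had 5 of 79 (6.33%), led by H2bu2 (8.94 and 7.46). Zinc finger genes of the Zfp families had 17 of 386 (4.40%), with Zfp442 at 11.2 and 11.1. The cilium list, which also took in coiled-coil genes by their Ccdc symbols, had 16 of 366 (4.37%), with Ccdc141 at 12.2 and 10.4. Genes of synapses and neurotransmitter receptors had 8 of 117 (6.84%), led by the serotonin receptor gene Htr4 (10.7 and 3.85), and kinases and phosphatases 12 of 173 (6.94%), led by Ptprk. Integrins and adhesion molecules had 2 of 47, Itgam and Nectin4 (6.27 and 6.09).

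Of genes that most cells use, some lists had few members in the set and others did not. No cytosolic ribosomal protein gene of 68 had a LysMCre-only promoter, and 1 of 88 DNA repair genes did (1.14%), 5 of 213 genes of the mitochondrial ribosome and respiratory chain (2.35%) and 6 of 225 splicing genes (2.67%), led by Dhx32 (10.1 and 9.48). The DNA repair gene was Rad51ap1 (2.78 and 4.03), and the 5 mitochondrial genes were Mrpl55 (9.21 and 6.70), Timm9, Mrps25, Mrpl14 and Mrpl20. Rad51ap1, Mrpl55 and Mrpl14 had another promoter called in all 4 libraries. Most genes of these lists were called in all 4: 76.5%, 67.0%, 69.0% and 72.9%, against 37.1% of all genes. Vesicle and lysosome genes had 12 of 313 (3.83%), led by Rab13. Cell cycle and mitosis genes, however, had 10 of 202 (4.95%), led by Cdk15, and ubiquitin and proteasome genes had 21 of 420 (5.00%), led by Trim67 (10.1 and 7.5), so both stood at the share of all genes, although 68.3% and 54.3% of their genes had a promoter called in all 4. Olfactory and keratin genes were also few. Of 1505 olfactory, vomeronasal and taste receptor genes, 2 had a LysMCre-only promoter (0.133%), Olfr110 (14.6 and 10.6) and Olfr550 (6.02 and 5.77). No keratin or cornified envelope gene of 144 did. On these 2 lists, 1500 (99.7%) and 143 (99.3%) genes had no promoter region in any library, against 43.0% of all genes. Those genes could not meet the rule, so the low shares say little about the set.

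Of 46 nuclear receptor genes, 2 were in the set. Rxrg, which encodes retinoid X receptor gamma and is not floxed in these mice, had 9.85 and 10.1 at a region whose midpoint lay 153 bp downstream of one of its TSSs. Another Rxrg promoter, further into the gene, was called in control replicate 1 too (9.68) and in LysMCre+ at 9.75 and 9.14, so the gene was not without a promoter peak in the controls. Esr2, an estrogen receptor gene, had 7.14 and 6.25.

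Part of the genes had another promoter as well. Of the 990 genes, 336 had more than 1 TSS among the curated mRNAs (33.9%), against 17.3% of all autosomal genes. A gene could meet the rule at any of its TSSs, so this gap follows at least in part from the rule. Another promoter of the gene was called in all 4 libraries for 191 genes (19.3%), where 37.1% of all genes had any promoter called in all 4, and in at least 1 control for 302 (30.5%), which left 688 genes (69.5%) with no promoter called in a control. Divergent promoters, where another gene starts within 1 kb upstream, made up 3.65% of the set against 10.7% of promoters called in all 4.

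The regions also sat further from the TSS. The midpoint was 500 bp or more upstream at 246 of the 1013 (24.3%), against 2.99% of promoters called in all 4 libraries and 8.90% of those missed only in control replicate 3. Within 200 bp of the TSS were 64.5%, 86.6% and 82.9%. The nearest peak of control replicate 1 was a median of 7.0 kb away, and 280 of the LysMCre-only promoters (27.6%) had one within 1 kb. The window of the rule set the outer limits of these distances, but it was the same for all 3 groups.

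**Figure D4:**
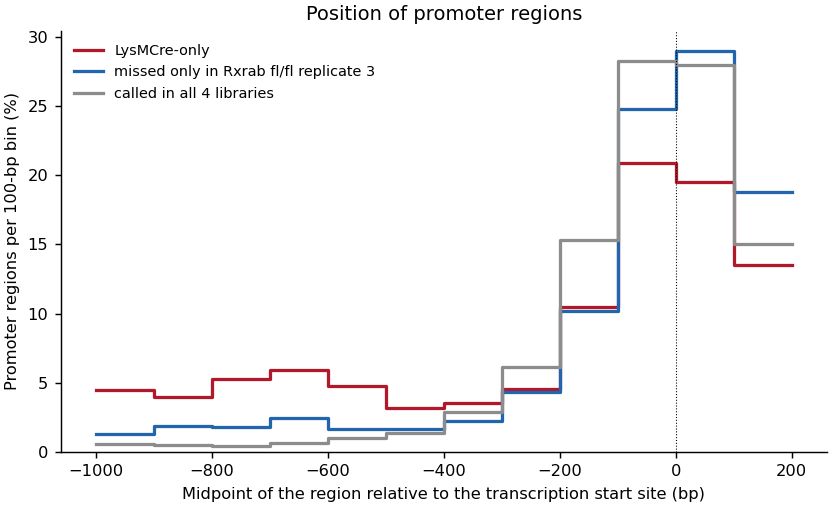
Share of promoter regions (y axis, percent per 100-bp bin) by distance of the midpoint from the TSS (x axis, bp, negative is upstream) for LysMCre-only promoters (red), promoters missed only in control replicate 3 (blue) and promoters called in all 4 libraries (grey). The red line stays above the other lines beyond 500 bp upstream, where it holds 24.3% of its regions.

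In sequence, LysMCre-only promoters were poorer in CpG than other promoters with peaks. A promoter was counted as CpG-rich if the 300 bases from 250 before to 50 after the TSS had a GC content over 55% and a ratio of observed to expected CpG of at least 0.65. This held for 368 of 1013 (36.3%, 95% Wilson interval 33.4 to 39.3), against 70.6% (69.5 to 71.7) of promoters called in all 4 libraries and 48.1% (46.2 to 50.0) of those missed only in control replicate 3. Of all 24860 autosomal TSSs of these mRNAs, 39.0% were CpG-rich. The intervals cover counting error only, and promoters are not independent samples. Strength ran the other way within the set, with 31.0% CpG-rich among the 100 strongest and 48.0% among the 100 weakest. Examples are Gbgt1, with a CpG ratio of 0.0474, and Ptprk, with a GC content of 75% and a ratio of 0.902.

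The DNA at the summits held fewer sites of general promoter factors than that of promoters called in all 4 libraries. Within 100 bp of the strongest summit, the ETS motif CCGGAAGT stood at 0.987% of LysMCre-only promoters and at 8.10% of promoters called in all 4 libraries. The YY1 motif AAGATGGCG stood at 0 of 1013 and at 2.28%, the NRF1 motif at 0.0987% and 2.12%, and the CRE motif TGACGTCA at 0.592% and 3.25%. A GC box (GGGCGG) stood at 36.2% and 67.3%, and a CCAAT box at 18.8% and 38.6%. Promoters missed only in control replicate 3 lay between for ETS (5.79%), NRF1 (1.5%), CRE (2.27%), the GC box (51.3%) and CCAAT (20.5%), but not for YY1 (2.75%).

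The lower shares of ETS and CCAAT matches were also seen within CpG-rich promoters and within the rest. Among CpG-rich promoters the ETS motif stood at 1.09% of LysMCre-only promoters and 8.12% of those called in all 4, and among the rest at 0.930% and 8.06%. For CCAAT the shares were 15.5% and 37.1% in CpG-rich promoters and 20.6% and 42.3% in the rest. At the summits, motifs of myeloid and signal-driven factors were more frequent than at promoters called in all 4. PU.1 (GAGGAAGT) stood at 4.44% and 2.83% and AP-1 (TGANTCA) at 5.73% and 3.15%. C/EBP (TTGCNNAA) stood at 6.02% and 4.43% and the motif of GATA factors (AGATAA) at 3.55% and 1.74%. Among promoters not CpG-rich, PU.1 stood at 4.96% and 5.04% and C/EBP at 7.44% and 7.17%. AP-1 stood at 7.29% and 5.64% and GATA factors at 4.50% and 3.16%. There the order of PU.1 was turned and the gap of C/EBP was small. Over the bases around the TSS used for CpG content, PU.1 stood at 2.47% of LysMCre-only promoters and 3.22% of those called in all 4. AP-1 stood at 6.81% and 3.96%, C/EBP at 9.48% and 7.90% and GATA factors at 6.52% and 4.24%. Among all TSSs of curated mRNAs the shares of PU.1, AP-1, C/EBP and GATA factors were 3.04%, 6.84%, 9.93% and 9.28%. In that stretch the LysMCre-only shares were thus not above those of all TSSs. No match to the DR1 or DR5 elements of RXR dimers lay within 100 bp of a LysMCre-only summit, and DR1 was found at 0.0726% and DR5 at 0 of the promoters called in all 4, too few to compare.

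**Figure D5:**
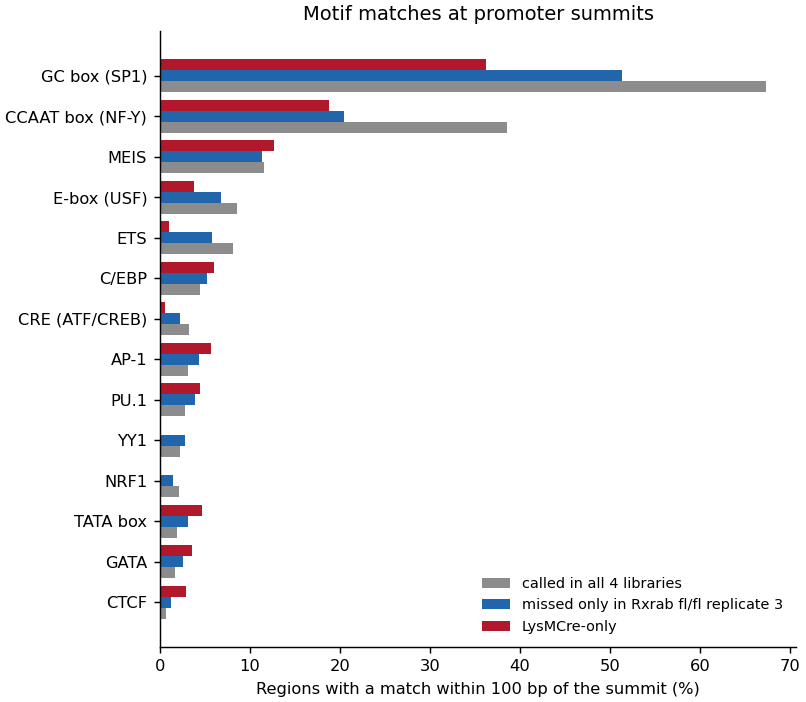
Share of promoters with a match to each motif within 100 bp of the strongest summit (x axis, percent), for LysMCre-only promoters (red), promoters missed only in control replicate 3 (blue) and promoters called in all 4 libraries (grey). GC box and CCAAT matches fall from grey to red (67.3% to 36.2% and 38.6% to 18.8%). ETS, CRE, YY1 and NRF1 matches stand at 0.987% or less in red, and CTCF is the reverse (0.712% to 2.86%).

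CTCF, a zinc finger protein that anchors chromatin loops and insulators, went the other way. Its core motif stood at 29 LysMCre-only summits (2.86%), against 0.712% at promoters called in all 4 libraries and 1.21% at those missed only in control replicate 3. The 15120 regions with the same calls that lay away from promoters had it at 6.56%. The share was not computed for other regions away from promoters, so this value has no comparison. Of the 29, 5 are printed, chosen after their values were seen as examples outside exons. Each is 40 bases long on the strand of the motif, with the core match in capitals: Abr at chr11:76578053-76578092 on the minus strand, Tgm2 at chr2:158146472-158146511 on the minus strand, Cldn1 at chr16:26371883-26371922 on the minus strand, Tmem211 at chr5:113226739-113226778 on the minus strand and C1qtnf1 at chr11:118443358-118443397 on the minus strand.
Abr: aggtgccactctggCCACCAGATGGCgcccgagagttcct
Tgm2: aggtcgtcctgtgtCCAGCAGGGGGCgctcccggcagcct
Cldn1: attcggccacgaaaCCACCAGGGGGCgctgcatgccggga
Tmem211: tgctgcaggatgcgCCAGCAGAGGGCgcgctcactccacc
C1qtnf1: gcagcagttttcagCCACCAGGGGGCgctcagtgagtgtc

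These matches lay 1 to 45 bp from the summit and 64 to 334 bp upstream of the TSS. Abr was the strongest of the 29, and Tgm2, a transglutaminase, had fold enrichments of 8.76 and 10.0. Cldn1, a tight junction claudin, had 8.60 and 6.73, Tmem211 had 8.71 and 7.64, and C1qtnf1, a C1q-like secreted protein, had 8.71 and 4.66. The weakest of the 29 was at Socs3, an inhibitor of cytokine signalling (2.50 and 4.03). A match of letters does not show that CTCF was bound.

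Some LysMCre-only promoters lay near each other. Within 50 kb of the next, 182 of them formed 81 groups, of which 27 were regions of 1 gene and 13 had 3 or more. No such count was made for other promoters, so it does not show clustering. The largest held 8 alternative promoters of the protocadherin gamma locus on chromosome 18, among them Pcdhgb6 (9.40 and 9.84) and Pcdhga7 (6.88 and 8.66), with no control peak at either of the 2 other promoter regions between them. These promoters are close copies of each other and only reads of high mapping quality were kept, so their values are uncertain, as are those of the Cd209 genes. Prkcz, an atypical protein kinase C, had 4 LysMCre-only regions, from 3.96 and 4.32 to 8.16 and 5.47. Ly9, Slamf7 and Cd48 on chromosome 1 formed a SLAM family group, Cd48 with 7.56 and 7.76 but centred 850 bp upstream, and the nicotinic receptor genes Chrna5, Chrna3 and Chrnb4 formed another on chromosome 9 at 3.62 to 6.88. By chromosome, the share of promoter regions that were LysMCre-only ran from 6.2% on chromosome 13 to 11.4% on chromosome 7.

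Whether the genes of these promoters differed elsewhere was asked on regions that the rule did not use. Regions called in all 4 libraries and nearest to the TSS of one of the 990 genes numbered 746, for 405 genes. In a limma fit of log2 fold enrichment over all 15199 regions called in all 4, with Benjamini-Hochberg adjustment, none of the 746 passed as higher in LysMCre+ and 1 passed as lower, against 6 higher (0.0395%) and 7 lower (0.0461%) of all regions. At an unadjusted p under 0.05, 86 of the 746 were higher and 105 lower (25.6% together), against 22% of all regions. Their median log2 change was −0.03, with quartiles of −0.35 and 0.26, beside −0.09 for all regions. An exact permutation test of 2 against 2 libraries cannot go below p = 0.333.

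The 1 region called lower was upstream of Rcn3, a calcium-binding protein of the endoplasmic reticulum, at 22.1 and 15.9 in the controls and 9.40 and 8.21 in LysMCre+, where the groups did not overlap. Its log2 change was −1.46 (SE 0.23, adjusted p = 0.0449 from limma), and the LysMCre-only promoter is another region of the same gene. With the summit pileup as the measure, limma called 28 of the 746 higher and 27 lower (3.75% and 3.62%), against 2.49% and 4.98% of all regions, and the Rcn3 region was not among them (log2 change −0.70, adjusted p = 0.0662 from limma). The largest pileup changes were a fall at a region near Brox (log2 change −2.26, adjusted p = 0.0208 from limma; pileups of 121 and 62, then 32 and 34) and a rise near Pde2a, a cyclic nucleotide phosphodiesterase (1.85, adjusted p = 0.0183 from limma; 52 and 18, then 222 and 181). At Pde2a the fold enrichment changed by −0.01, so the call rests on the scale.

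On fold enrichment, no region called in all 4 libraries passed at the SPM markers, where 11 such regions lay at 6 of the 16 genes (4 at an unadjusted p under 0.05, lowest adjusted p = 0.0829 from limma). Their log2 changes ran from −0.86 to 0.71. On the summit pileup 1 of them, nearest to the TSS of Ly6c2, was called lower (log2 change −2.08, adjusted p = 0.0187 from limma), where the fold enrichments were 20.5 and 15.6, then 15.1 and 10.8 (−0.86). Of markers with a LysMCre-only promoter, Mrc1 had a region 22349 bp upstream with fold enrichments of 9.64 and 5.17 in the controls and 13.1 and 13.7 in LysMCre+, a log2 change of 0.56 (SE 0.22, adjusted p = 0.167 from limma). A region 20788 bp downstream of the Mrc1 TSS had 9.83 and 5.05, then 7.98 and 8.77 (−0.12, adjusted p = 0.781 from limma). At the Cx3cr1 region 9468 bp downstream the values were 16.1 and 8.27, then 17.8 and 11.2 (−0.08, adjusted p = 0.864 from limma). Outside this list, an Rxrg region 14182 bp upstream had 5.43 and 3.87, then 6.41 and 6.42 (0.12, adjusted p = 0.797 from limma), and its change on the summit pileup had the other sign (−0.90, adjusted p = 0.157 from limma). None of these 4 changes at Mrc1, Cx3cr1 and Rxrg passed the test, after centring on the library medians.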

How the data were processed

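ATAC-seq peak lists of 4 LPM libraries were analysed, 2 of Rxrab fl/fl mice and 2 of LysMCre+ Rxrab fl/fl mice. The authors trimmed adaptors, aligned read pairs to mm10 with Bowtie2, and kept unique, properly paired reads of high mapping quality off chromosomes X and Y. They called peaks in each library with MACS2 2.1.1 (extension 200 bp, a shift of 100 given without its sign, q value 0.05), leaving out blacklisted regions. The deposited lists give the fold enrichment at the summit, a ratio to local background. The deposited lists also give −log10 p and −log10 q values, and a summit offset. The integer score was not used. The authors tested read counts with edgeR, but counts are not analysed here.

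Peaks sharing 1 bp were merged and placed on 37867 NM transcripts of RefSeq on GRCm38.p6. Whole-number pileups were solved from fold enrichment and p value, with a tolerance of 0.002 on −log10 p times its square root where over 1. Of the promoters in the set, 756 were in the RefSeq promoter table with the same sequence, and none differed. Log2 fold enrichment, centred on the library median, was fitted with limma 3.58.1 in R 4.3.3 (called at adjusted p under 0.05 and log2 change past 1), after a check on simulated data. Labels name 2 replicates per genotype and no separate mice, so p values may measure technical spread only. The members and lists were chosen with earlier results of these data known. Genes named are the 12 strongest, 3 weakest and 3 widest, those at the edges of the rule, marker genes, strongest genes of each list described, those that met the rule at equal peak numbers and those with another region called by limma; clusters and CTCF examples were chosen after their values were seen. Alternatives were other q values, peak numbers, merging, windows, transcripts, CpG definitions, scales and each library left out.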

Additional observations from a re-analysis of the deposited data

How the results depend on the processing

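With 1013 LysMCre-only promoters as reported, a q value of 0.01, peaks reduced to their summits, peaks within 100 bp merged, the strongest summit, NR transcripts added, and each of Rxrab fl/fl replicate 3 and LysMCre+ Rxrab fl/fl replicate 1 left out kept the count within 1.5 times. It was 206 with equal peak numbers, 634 in the window from 500 bp upstream to 100 bp downstream and 1644 within 1 kb either side. Leaving out a library gave 1016 to 3756, the highest without Rxrab fl/fl replicate 1, and 1928 without LysMCre+ Rxrab fl/fl replicate 2. The median geometric mean fold enrichment of 5.74 rose to 13.2 with equal peak numbers. The CpG-rich share of 36.3% was 44.2% with a GC content over 50% and a CpG ratio of at least 0.6, where promoters called in all 4 libraries had 81.3%.

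The 1 limma call among other regions of these genes became 55 on the summit pileup, 0 without centring (50 higher and 3 lower at an unadjusted p under 0.05) and 14 with a mean-variance trend. Leaving out a library gave 3 to 48, with 48 without Rxrab fl/fl replicate 1, 11 without Rxrab fl/fl replicate 3 and 3 without either LysMCre+ Rxrab fl/fl library, where the lone library is assumed to vary like the others. The causes were not tested. No paired analysis was possible because the genotypes share only replicate number 1. Depth is known only through the background of the peak caller, and no value exists where no peak was called.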
